A study of Mus musculus with 32 samples.

Results

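Injured spinal cords that carried the control treatment were compared between 35 and 14 days after injury, from the subacute to the chronic phase of the lesion. The members were chosen by label alone and are 7 of the 32 libraries of the series, 4 labelled SCI+Ctrl at 35 days and 3 labelled SCI+Ctrl at 14 days. All groups came from C57BL/6J mice of 8 to 12 weeks, with total RNA from the lesioned stretch of cord and a margin on each side. The sources used here do not give the control treatment, the way the cord was injured, the sex of the mice, or whether replicates came from separate animals. The p-values measure the spread within groups, pooled over all 32 libraries of the series, and this spread may therefore be technical. For reference, use was made of sham cords at 3 and 35 days (n = 3 each), of SCI+Ctrl cords at 3 days (n = 3), and of SCI+Gsx1 cords at 14 and 35 days (n = 3 and 4), which were injured and carried Gsx1, a homeobox transcription factor of the developing dorsal cord.

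After a cord injury, a subacute phase of invading macrophages, dividing cells and fibroblasts that lay down matrix gives way to a chronic scar. The scar has a fibrotic core, rich in collagens and fibronectin, inside a border of reactive astrocytes. Basement membranes are the sheets of matrix that surround blood vessels and separate astrocytes from fibroblasts. They are built from type IV collagen, laminins, nidogens and perlecan. Elastic fibres are built from elastin on a scaffold of fibrillin microfibrils and are crosslinked by lysyl oxidases. Markers of nervous tissue were present at both times. The neuronal gene Snap25 stood at 1475, 1708 and 1740.5 CPM at 14 days and 1145, 2154, 1822 and 985 CPM at 35 days. The myelin gene Mbp stood at 10891, 11385 and 12891 CPM at 14 days and 21236, 12849, 14929 and 24644 CPM at 35 days. Neither gene marks the level of the cord. They belong to 9 genes listed as a check of tissue and segment. Of the 9, 4 had positive and 5 negative log2 fold changes, and 0 were called.

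Libraries 1 and 4 of the 35 day group stood apart from the other 5 libraries, and without them no call but those of Col4a1, Col4a2 and Eln remained. The values without them are given beside many, but not all, of the genes and lists below. The 7 libraries held 11.2 to 14.7 M (mega counts) and 17675 to 18028 detected genes. Libraries 1 and 4 had similar totals (13.3 and 13.2 M) and the lowest and the highest number of detected genes, 17675 and 18028. Log2 CPM (counts scaled to 1 mega count per library with TMM factors) was taken for each gene as the deviation from its mean over libraries. The median deviation of genes with under 2 kb of exon minus that of genes over 8 kb was 0.72 in library 1 and 0.59 in library 4. It lay between -0.28 and 0.37 in the other 30 libraries of the series. The leading principal component of the 7 libraries held 41.3% of their variance and placed them at 61.1 and 59.2, against -42.9 to -0.44 for the rest. Both also held high levels of Xist, the RNA that coats an inactive X chromosome (407 and 676 CPM, against 0.34 to 2.51 CPM in the other 5), and all 14 day libraries were low in Xist. Time and these features are therefore mixed. At 14 days, replicates 1 and 2 differed from all other members in the ribosomal protein gene Rpl29 (12.1, 11.1 and 87.0 CPM at 14 days and 188, 97.1, 97.5 and 171 CPM at 35 days).

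**Figure D1:**
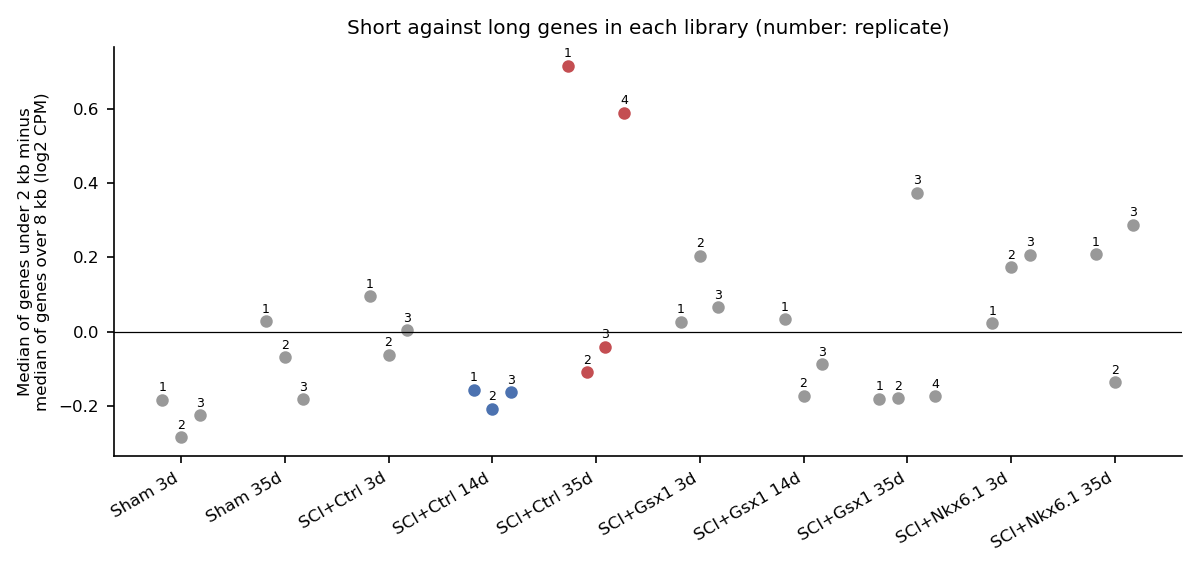
Median deviation of log2 CPM from each gene's mean over libraries, for genes under 2 kb minus that for genes over 8 kb (vertical axis, log2 units). Each of the 32 libraries is shown by group (horizontal axis), with the replicate number above each point. Replicates 1 and 4 of SCI+Ctrl 35d lie at 0.72 and 0.59, above the range of -0.28 to 0.37 of the other 30.

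Of 16314 genes tested, 216 (1.32%) changed, of which 140 rose (0.858%) and 76 fell (0.466%) from 14 to 35 days at an edgeR adjusted p under 0.05. Of these, 33 and 39 changed at least 2-fold. The 35 day values lay wholly above the 14 day values for 131 of the 140 genes and wholly below them for 74 of the 76, where 7.78% and 6.07% of all genes tested were without overlap. As the genes were called on these same libraries, that separation follows in part from the choice. Lack of overlap was also a condition for naming the largest and the most abundant changes below. The adjusted p of the called genes ran from 0.00689 to 0.0499, and 3828 genes had an unadjusted p under 0.05. All 216 genes had the same direction in each of the 20 alternatives that tested them. The number of calls was less firm: without 35 day libraries 1 and 4 it was 3, all lower (0.0182% of the genes tested there; Col4a1, Col4a2 and Eln), and in a fit of the 7 libraries alone it was 0. With the trend of counts with gene length removed from every library it was 21, with 9 higher (0.0552%) and 12 lower (0.0736%), of which 20 were among the 216. The median exon length was 7764 bases for genes that fell and 2898.5 bases for genes that rose (93.6% of the genes tested had a length). Of the 73 that fell and had a length, 55 were over 5 kb. The share of all genes over 5 kb is not given here. Of the 132 genes that rose and had a length, 40 were under 2 kb. Among all 15276 genes with a length, 2257 were under 2 kb. Log2 fold change and exon length had a Spearman correlation of -0.37.

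**Figure D2:**
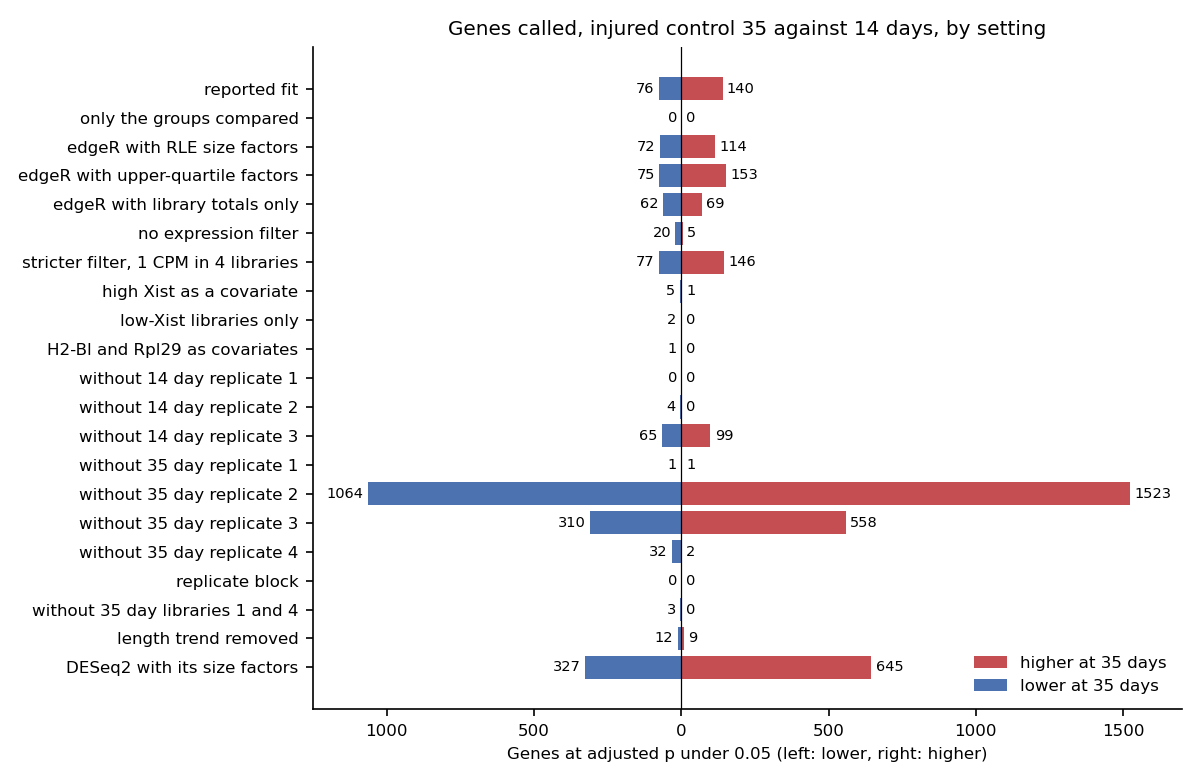
Genes called at adjusted p under 0.05 in the 35 against 14 day comparison, with genes lower at 35 days to the left and genes higher to the right (horizontal axis, number of genes), for the reported fit and 20 alternatives. Leaving out 35 day replicate 1 gave 2 calls and leaving out replicate 2 gave 2587, against 216 in the reported fit.

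Of the 216 genes, the one called in the most alternatives was Col4a1, which encodes a collagen of the basement membrane. The α1 and α2 chains of type IV collagen form 1 network-building trimer, and their genes, Col4a1 (chromosome 8, 11198423 to 11312826, minus strand, GRCm38) and Col4a2 (chromosome 8, 11312805 to 11449287, plus strand), lie head to head. Their RefSeq promoter windows (GRCm38.p6) are shown because both genes fell together and the windows share 78 bases, given in capitals, each on its gene's own strand. The Col4a1 window is chr8:11312777-11313076 on the minus strand, and the Col4a2 window is chr8:11312555-11312854 on the plus strand.
Col4a1: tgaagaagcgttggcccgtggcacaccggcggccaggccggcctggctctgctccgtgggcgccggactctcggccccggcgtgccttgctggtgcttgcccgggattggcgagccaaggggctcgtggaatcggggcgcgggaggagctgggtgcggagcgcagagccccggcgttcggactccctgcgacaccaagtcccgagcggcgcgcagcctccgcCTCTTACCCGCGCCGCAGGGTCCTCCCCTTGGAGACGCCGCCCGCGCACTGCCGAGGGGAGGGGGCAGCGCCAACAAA
Col4a2: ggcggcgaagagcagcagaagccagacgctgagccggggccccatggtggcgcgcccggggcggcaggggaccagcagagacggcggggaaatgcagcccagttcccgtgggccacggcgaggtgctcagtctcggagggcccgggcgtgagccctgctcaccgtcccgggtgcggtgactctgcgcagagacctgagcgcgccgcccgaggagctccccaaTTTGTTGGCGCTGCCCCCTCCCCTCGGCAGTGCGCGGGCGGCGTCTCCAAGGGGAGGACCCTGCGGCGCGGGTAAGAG
Each window held 1 CCAAT box (CCAAT, both strands), which 37.4% of 32851 windows of this length hold. The GC box (GGGCGG, both strands) was found 1 time in the Col4a1 window and 3 times in the Col4a2 window, and 35.7% of windows hold it. These matches are a description of the letters, not sites of binding. The strand setting of the counting is not given, so reads from the short stretch where the genes overlap cannot be assigned.

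Col4a1 stood at 254, 228 and 196 CPM at 14 days and 43.1, 74.3, 64.8 and 131 CPM at 35 days. The 35 day values were all below the 14 day values, and replicate 4 was the highest of them. Its log2 fold change was -1.53 ± 0.24 (SE; 95% interval -2.02 to -1.04; adjusted p in edgeR = 0.00689), 2.88-fold lower. It passed the threshold in 16 of 20 alternatives, at -1.70 (adjusted p in edgeR = 9.57e-04) without libraries 1 and 4 and at -1.42 (adjusted p in edgeR = 0.0282) with the length trend removed. Col4a2 stood at 189, 213 and 151 CPM at 14 days and 57.5, 81.6, 76.0 and 135 CPM at 35 days. Its groups did not overlap either, and it fell by 1.08 ± 0.21 on the log2 scale (SE; adjusted p in edgeR = 0.0392). Without libraries 1 and 4 its log2 fold change was -1.23 (adjusted p in edgeR = 0.0362), and with the length trend removed it was -1.0 (adjusted p in edgeR = 0.0517).

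Laminins are trimers of α, β and γ chains that start the assembly of the sheet. Lamc1, the common γ1 chain, stood at 164, 186 and 156 CPM at 14 days and 49.2, 79.5, 87.4 and 108 CPM at 35 days. The groups did not overlap, and the log2 fold change was -1.06 ± 0.20 (SE; adjusted p in edgeR = 0.0392), or -1.02 (adjusted p in edgeR = 0.135) without libraries 1 and 4. Lama2, the α2 chain that is mutated in a congenital muscular dystrophy, stood at 53.1, 88.4 and 51.4 CPM at 14 days and 12.6, 29.8, 25.5 and 42.1 CPM at 35 days. It fell as well (log2 fold change -1.23 ± 0.31, SE; adjusted p in edgeR = 0.0466), and its value without libraries 1 and 4 was -1.22 (adjusted p in edgeR = 0.307). Lamb1, the β1 chain, did not pass, with 70.2, 74.1 and 41.5 CPM at 14 days and 6.29, 16.4, 22.9 and 35.1 CPM at 35 days and no overlap (log2 fold change -1.62 ± 0.43, SE; adjusted p in edgeR = 0.0530).

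Of 23 basement membrane genes, a list assembled after values were seen, 4 fell and 0 rose, where 0.466% of all genes fell. The median log2 fold change of the list was -1.06, beside 0.02 over all genes tested. It was -1.18 without libraries 1 and 4 and -0.92 with the length trend removed. Of the 23, 15 had an unadjusted p under 0.05 in the lower direction, as did 9.47% of all genes. Hspg2 and Nid1 did not pass and overlapped between groups through replicate 4. Hspg2, which encodes perlecan, stood at 225, 259.8 and 155 CPM at 14 days and 28.0, 57.0, 70.5 and 174 CPM at 35 days (adjusted p in edgeR = 0.0732). Nid1, which encodes the linker nidogen 1, stood at 141, 182 and 118 CPM at 14 days and 18.5, 57.1, 59.8 and 129.7 CPM at 35 days (adjusted p in edgeR = 0.0867). In both genes replicate 4 at 35 days was near the 14 day level and replicate 1 was the lowest of all. Markers of other matrix-making cells varied in the same order. The summed level of 10 meningeal and perivascular fibroblast genes was 892 to 1054 CPM at 14 days and 810, 937, 1314 and 3090.5 CPM in 35 day replicates 1 to 4. That of 10 Schwann cell genes was 893 to 1826 CPM at 14 days and 185, 351, 639 and 1213 CPM in 35 day replicates 1 to 4. None of these 20 genes was called, and the list medians were 0.21 for the fibroblast genes (-0.38 without libraries 1 and 4) and -0.64 for the Schwann cell genes (-0.98 without them). Vessel cell markers had the same replicate order. The summed level of 12 endothelial genes was 588 to 722 CPM at 14 days and 539, 618, 663 and 781 CPM in 35 day replicates 1 to 4. That of 8 pericyte and smooth muscle genes was 214 to 246 CPM at 14 days and 135, 194, 208 and 342 CPM at 35 days. Their list medians were -0.10 and 0.30 (-0.19 and -0.06 without libraries 1 and 4), with 0 called. The part of all these cells in the matrix falls was not tested. Agrn, which encodes agrin, and Lamb2, the β2 chain of vascular and synaptic laminins, had log2 fold changes of -0.15 ± 0.16 and -0.03 ± 0.18 (SE; adjusted p in edgeR = 0.570 and 0.932). Their 95% intervals were -0.48 to 0.17 and -0.40 to 0.34. In whole tissue, fewer cells that make these transcripts and less transcript per cell cannot be told apart.

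**Figure D3:**
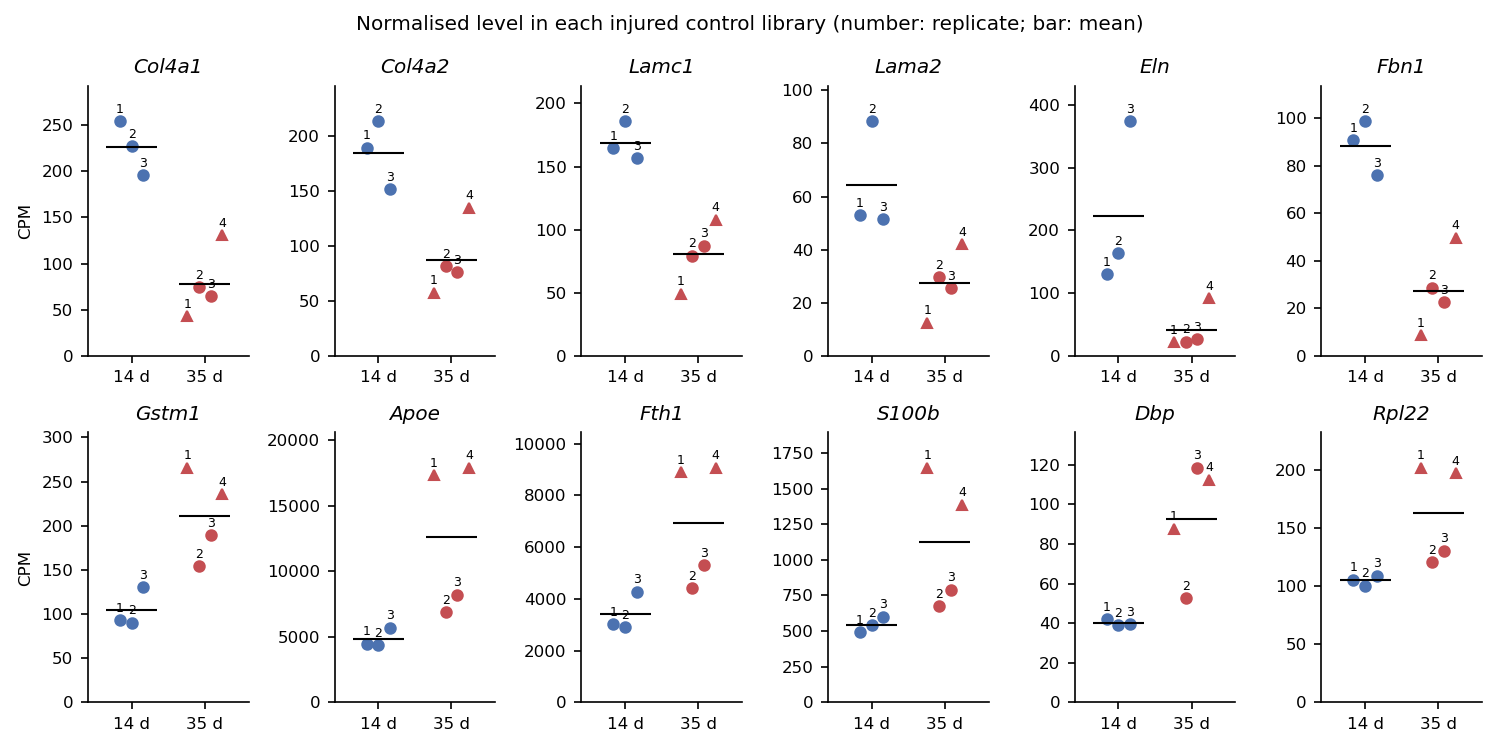
CPM (vertical axis, linear from 0) of 12 called genes in the 3 libraries at 14 days and the 4 at 35 days (horizontal axis), with the replicate number at each point, triangles for 35 day replicates 1 and 4, and a bar at the mean. In the upper row every 35 day value lies below the 14 day values, and replicate 4 is the highest at 35 days. In the lower row the 35 day values lie above, and replicates 1 and 4 are the highest in Gstm1, Apoe, Fth1, S100b and Rpl22.

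Of the genes of elastic fibres and their microfibrils, 5 fell, where 0.466% of all genes fell. Eln, which encodes elastin (chromosome 5, 134702593 to 134747323, minus strand), stood at 129.7, 163 and 374 CPM at 14 days and 21.7, 22.8, 26.9 and 92.4 CPM at 35 days. Replicate 3 was the highest at 14 days and replicate 4 the highest at 35 days, and the groups did not overlap. Its log2 fold change was -2.44 ± 0.48 (SE; adjusted p in edgeR = 0.0392), 5.43-fold lower. It was called in 13 of 20 alternatives, among them the fit without libraries 1 and 4 (-3.16, adjusted p in edgeR = 0.0362) and the fit with Rpl29 and H2-Bl as covariates, where it was the sole call. Fbn1, which encodes the microfibril scaffold fibrillin 1, stood at 90.7, 98.8 and 76.1 CPM at 14 days and 8.76, 28.7, 22.6 and 49.7 CPM at 35 days (log2 fold change -1.69 ± 0.41, SE; adjusted p in edgeR = 0.0429). Every 35 day value was below every 14 day value. Fbn2, the fibrillin of development, fell to a lesser degree (-1.01 ± 0.24, SE; adjusted p in edgeR = 0.0429). Mfap2, a microfibril glycoprotein with a short transcript of 1211 bases, fell by 1.14 ± 0.28 (log2, SE; adjusted p in edgeR = 0.0466) and kept its call with the length trend removed (-1.49, adjusted p in edgeR = 0.0282). Loxl4, a lysyl oxidase that crosslinks collagen and elastin, was low throughout, with 3.95, 2.67 and 1.99 CPM at 14 days and 0.239, 0.945, 0.812 and 0.446 CPM at 35 days (-2.19 ± 0.44, SE; adjusted p in edgeR = 0.0392). With libraries 1 and 4 left out, the log2 fold changes of Fbn1, Fbn2, Mfap2 and Loxl4 were -1.79, -1.27, -1.54 and -1.69, and none was called (adjusted p in edgeR from 0.173 to 0.407).

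These 5 were the members that changed among 22 elastic fibre and microfibril genes (also listed after values were seen), whose median log2 fold change was -0.82. When libraries 1 and 4 were omitted, the median was -1.23 and 1 member was called. With the length trend removed the median was -0.67 and 2 were called. Members that did not pass ranged in log2 fold change from -2.27 ± 0.69 (SE) for Mfap4 (adjusted p in edgeR = 0.0692) to 0.66 ± 0.52 (SE) for Efemp1 (adjusted p in edgeR = 0.439), which encodes fibulin 3. Col14a1 and Col5a2, 2 of 20 fibrillar and fibril-associated collagens (listed after values were seen), fell too, where 0.466% of all genes fell. Col14a1, which binds the surface of collagen fibrils, stood at 41.1, 35.9 and 26.7 CPM at 14 days and 1.59, 7.83, 7.82 and 10.9 CPM at 35 days, without overlap (-2.29 ± 0.51, SE; adjusted p in edgeR = 0.0427). Col5a2, a chain of the collagen that starts fibrils, stood at 169.6, 169 and 110.5 CPM at 14 days and 25.0, 43.9, 43.4 and 103 CPM at 35 days (-1.47 ± 0.38, SE; adjusted p in edgeR = 0.0494). Without libraries 1 and 4 their values were -2.14 and -1.78 (adjusted p in edgeR = 0.298 and 0.180).

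The main collagens of the fibrotic scar did not pass the test, and their 35 day values were widely spread. Col1a1, the α1 chain of type I collagen, stood at 925, 768 and 796 CPM at 14 days and 45.7, 212, 164 and 550.4 CPM at 35 days. No 35 day value reached the 14 day range, and within 35 days replicate 1 was the lowest and replicate 4 the highest. Its log2 fold change was -1.77 ± 0.62 (SE; 95% interval -3.05 to -0.50; adjusted p in edgeR = 0.102). Col3a1 stood at 1079, 909 and 832 CPM at 14 days and 19.6, 131, 129 and 482 CPM at 35 days (-2.30 ± 0.80, SE; adjusted p in edgeR = 0.0986). Postn, which encodes periostin, stood at 199, 149 and 101 CPM at 14 days and 14.6, 20.4, 22.1 and 66.7 CPM at 35 days (-2.27 ± 0.66, SE; adjusted p in edgeR = 0.0640). Fn1, which encodes fibronectin, overlapped between groups (696, 576 and 615 CPM at 14 days and 213, 308, 343 and 675 CPM at 35 days; -0.71 ± 0.37, SE; adjusted p in edgeR = 0.245). Of 18 fibrotic scar genes 0 were called and 10 were lower at an unadjusted p under 0.05, as were 9.47% of all genes. The median log2 fold change of the list was -1.01, or -1.53 without libraries 1 and 4 and -1.07 with the length trend removed.

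Fmod, which encodes the collagen-binding proteoglycan fibromodulin, moved the other way and rose (38.2, 35.1 and 63.8 CPM at 14 days and 113, 61.1, 96.9 and 184 CPM at 35 days; 1.31 ± 0.31, SE; adjusted p in edgeR = 0.0429). Replicate 2 at 35 days was below replicate 3 at 14 days, so its groups overlapped, and without libraries 1 and 4 its value was 0.79 (adjusted p in edgeR = 0.608). Among proteoglycans and tenascins of the glial scar, 2 of 15 fell and 0 rose, where 0.466% of all genes fell. The list median was -0.28, or -0.19 without libraries 1 and 4. Tnc, which encodes tenascin C, a matrix protein of wounds, stood at 92.4, 95.8 and 52.4 CPM at 14 days and 19.3, 26.1, 22.9 and 40.8 CPM at 35 days (-1.55 ± 0.36, SE; adjusted p in edgeR = 0.0429). Ncan, which encodes neurocan, a chondroitin sulfate proteoglycan that restrains axon growth, stood at 162, 139.9 and 105 CPM at 14 days and 90.4, 94.9, 82.9 and 52.0 CPM at 35 days (-0.76 ± 0.18, SE; adjusted p in edgeR = 0.0429). Neither overlapped between groups, and the lowest Ncan value was that of replicate 4 at 35 days. With libraries 1 and 4 left out, their log2 fold changes were -1.71 and -0.61 (adjusted p in edgeR = 0.274 and 0.488).

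Matrix transcripts were also set beside the other times. Col4a1 in injured controls was at 339 ± 80.7 CPM at 3 days (SD, n = 3), at 226 ± 29.2 CPM at 14 days (SD, n = 3) and at 78.3 ± 37.5 CPM at 35 days (SD, n = 4). Sham cords at 35 days were at 38.8 ± 2.13 CPM (SD, n = 3). Its level was thus highest at 3 days, and at 35 days it was above sham (log2 fold change 1.01 ± 0.25, SE; adjusted p in edgeR = 0.00328). The difference between 14 and 3 days did not pass (-0.59 ± 0.256, SE; adjusted p in edgeR = 0.204). Eln followed another course, with 61.0 ± 51.4 CPM at 3 days (SD, n = 3), 222 ± 132 CPM at 14 days (SD, n = 3) and 41.0 ± 34.4 CPM at 35 days (SD, n = 4), beside 8.42 ± 1.44 CPM in sham cords (SD, n = 3). It rose from 3 to 14 days (1.87 ± 0.520, SE; adjusted p in edgeR = 0.0462) and at 35 days was above sham (2.28 ± 0.544, SE; adjusted p in edgeR = 0.00248). These contrasts share the 14 or 35 day libraries with the main one and are not independent of it. Of the 76 genes that fell, 12 had risen from 3 to 14 days and 16 were above sham at 35 days, beside 0.644% and 21.3% of all genes, while 11 were below sham (15.5% of all genes). Of the 140 genes that rose, 67 were above sham at 35 days and 0 were below it, and 6 had fallen from 3 to 14 days (2.42% of all genes).

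**Figure D4:**
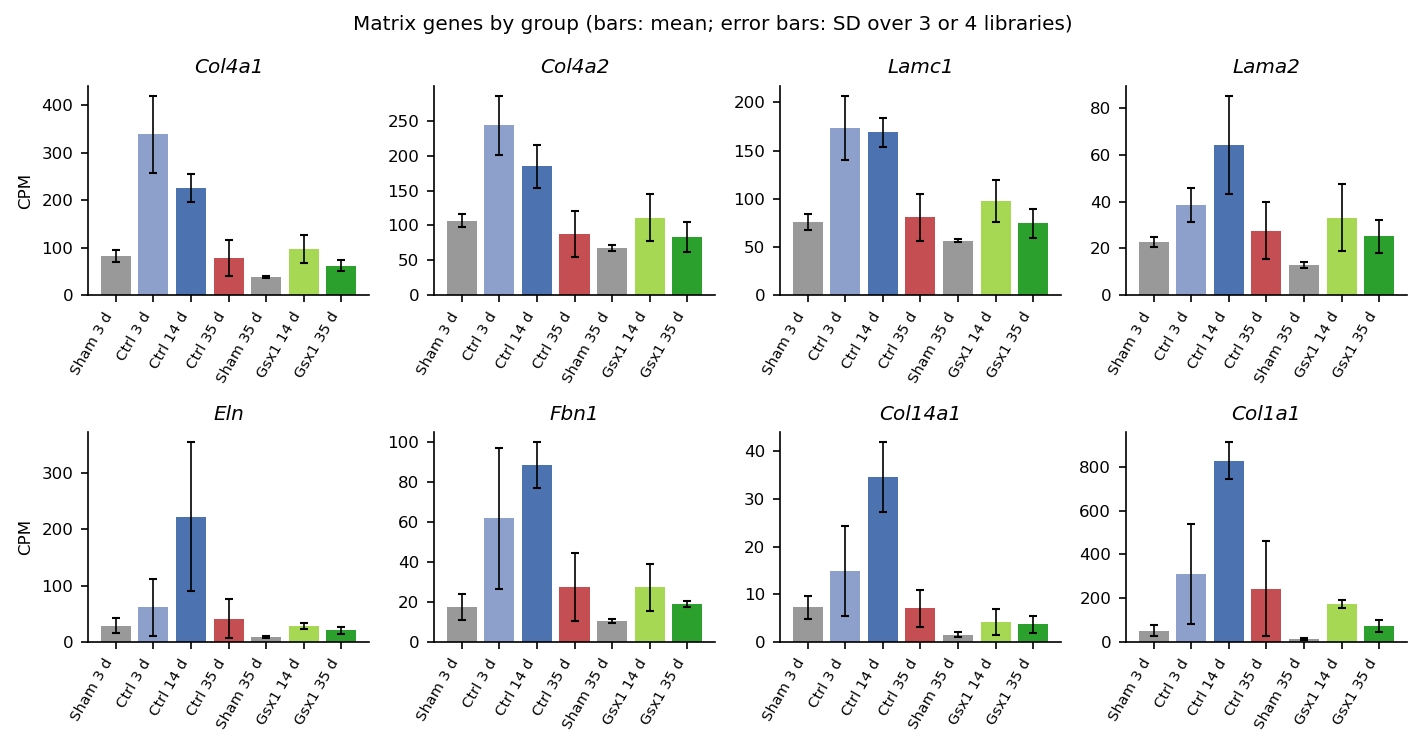
Mean CPM (vertical axis, linear from 0) with SD over 3 or 4 libraries as error bars, for 8 matrix genes in sham, injured control (Ctrl) and Gsx1 cords at the times named on the horizontal axis. Col4a1 and Col4a2 are highest at 3 days, and Eln, Fbn1, Col14a1 and Col1a1 at 14 days.

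Of 16 genes of lipid uptake, efflux and storage, 1 fell and 0 rose, where 0.466% of all genes fell. The list median was -0.13, or -0.14 without libraries 1 and 4. The one that fell was Cd36. This scavenger receptor, which takes up fatty acids and oxidised lipoproteins, stood at 158, 17.3 and 45.6 CPM at 14 days and 2.31, 8.3, 7.53 and 8.48 CPM at 35 days. All 35 day values were below the 14 day values, but replicate 1 at 14 days was far above the rest. The log2 fold change was -3.46 ± 0.72 (SE; adjusted p in edgeR = 0.0407), and -3.22 without libraries 1 and 4 (adjusted p in edgeR = 0.376). Angptl4, a secreted inhibitor of lipoprotein lipase, stood at 18.3, 6.33 and 17.7 CPM at 14 days and 4.62, 2.9, 2.58 and 4.83 CPM at 35 days (-1.91 ± 0.46, SE; adjusted p in edgeR = 0.0429). Adipocyte markers moved with these genes: the summed level of the 4 tested markers was 33.1, 0.27 and 7.2 CPM at 14 days and 0.15 to 0.74 CPM at 35 days. The defining marker Adipoq stood at 7.46, 0.0667 and 2.06 CPM at 14 days. In replicate 2, where these markers were near 0, Cd36 stood at 17.3 CPM, its lowest 14 day value. Skeletal muscle genes moved too: 11 of 12 were lower at 35 days, with a list median of -2.28 (-1.85 without libraries 1 and 4) and 0 called. Their mean log2 CPM was 3.04, 0.71 and 3.07 at 14 days and 0.70, 1.32, 0.06 and 0.40 at 35 days, so replicates 1 and 3 at 14 days were high, as in Angptl4. Their summed level, 59.9 to 153.6 CPM at 14 days and 75.5 to 122 CPM at 35 days, was made up largely of Pvalb, the member that was higher at 35 days and that neurons also express. When libraries 1 and 4 were omitted, the log2 fold change of Angptl4 was -2.35 (adjusted p in edgeR = 0.233). The part of either tissue in these falls was not tested.

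Kcnj15, an inwardly rectifying potassium channel, stood at 10.0, 11.3 and 6.8 CPM at 14 days and 0.0796, 1.08, 0.221 and 2.38 CPM at 35 days (-3.30 ± 0.81, SE; adjusted p in edgeR = 0.0429). Dsp, which encodes desmoplakin of cell junctions, stood at 18.5, 12.1 and 4.67 CPM at 14 days and 1.99, 1.35, 1.99 and 0.744 CPM at 35 days (-2.95 ± 0.75, SE; adjusted p in edgeR = 0.0477). In both, the groups did not overlap and the 35 day values were low throughout. Pi15, a secreted protein of the peptidase inhibitor family, stood at 19.0, 17.1 and 13.4 CPM at 14 days and 1.83, 5.53, 4.72 and 6.1 CPM at 35 days (-1.86 ± 0.36, SE; adjusted p in edgeR = 0.0392) and was called in 11 of 20 alternatives. Epha3, an ephrin receptor of axon guidance, fell by 1.76 ± 0.44 (log2, SE; adjusted p in edgeR = 0.0466), and Sema3e, a guidance cue, by 0.80 ± 0.21 (log2, SE; adjusted p in edgeR = 0.0489). Sema3e was the sole member called of 30 axon guidance genes, where 0.466% of all genes fell. At an unadjusted p under 0.05, 10 of the 30 were lower and 3 higher (9.47% and 14% of all genes). Their median was -0.25, or -0.10 without libraries 1 and 4 and -0.10 with the length trend removed. Dpep2, a membrane dipeptidase that acts on leukotrienes, stood at 6.86, 1.13 and 1.03 CPM at 14 days and 0.318, 0.472, 0.369 and 0.669 CPM at 35 days (-2.66 ± 0.66, SE; adjusted p in edgeR = 0.0452). Replicate 1 was its highest value, as in Cd36. Cfi, the complement protease that inactivates C3b, had 22, 45 and 9 counts at 14 days and 0, 5, 0 and 0 at 35 days (adjusted p in edgeR = 0.0427). Lhx2, a LIM homeobox factor, had 20, 25 and 9 counts at 14 days and 3, 2, 0 and 0 at 35 days (adjusted p in edgeR = 0.0429). At so few counts the size of these falls is poorly fixed. Without libraries 1 and 4 none of the genes of this paragraph was called, with log2 fold changes of -3.81 for Kcnj15, -2.81 for Dsp, -1.69 for Pi15, -1.81 for Epha3, -0.70 for Sema3e and -2.78 for Dpep2.

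Further single genes fell. Kank1, an adaptor between integrin adhesions and the cytoskeleton, stood at 72.9, 68.8 and 69.8 CPM at 14 days and 46.7, 53.5, 47.9 and 46.4 CPM at 35 days. The groups were tight and did not overlap, and the log2 fold change was -0.54 ± 0.09 (SE; adjusted p in edgeR = 0.0126), with 13 of 20 alternatives past the threshold. It also fell in Gsx1 cords, as the one gene called there from 14 to 35 days (-0.64 ± 0.0890, SE; adjusted p in edgeR = 0.00203). Cd47, the surface signal that restrains phagocytosis, stood at 91.4, 94.3 and 66.1 CPM at 14 days and 49.1, 58.9, 57.1 and 49.3 CPM at 35 days (-0.65 ± 0.13, SE; adjusted p in edgeR = 0.0392). Pappa, a protease that frees insulin-like growth factors from a binding protein, fell by 1.40 ± 0.28 (log2, SE; adjusted p in edgeR = 0.0392). Ecel1, a neuronal endopeptidase induced by axon injury, stood at 104, 89.8 and 114 CPM at 14 days and 64.2, 52.5, 52.5 and 28.2 CPM at 35 days (-1.06 ± 0.22, SE; adjusted p in edgeR = 0.0392). It was the sole member called of 16 regeneration-associated genes, where 0.466% of all genes fell. The list median was -0.05, or -0.29 without libraries 1 and 4 and -0.23 with the length trend removed. With libraries 1 and 4 left out, the log2 fold changes of Kank1, Cd47, Pappa and Ecel1 were -0.48, -0.53, -0.89 and -0.97, and none was called (adjusted p in edgeR from 0.174 to 0.427). Among the most abundant genes that fell were Mll1 and Mll2, histone methyltransferases, Trio, an exchange factor of small GTPases, and Tnrc6b, a protein of microRNA silencing. Their log2 fold changes ran from -0.66 for Trio to -0.45 for Mll1. Trio and Tnrc6b are long, with 23395 and 23677 bases of exon, and with the length trend removed their values were -0.31 and -0.08 (adjusted p in edgeR = 0.0665 and 0.711). Mll1 and Mll2 had no matched exon length, so that setting made no correction to their counts. When libraries 1 and 4 were omitted, these 4 genes ran from -0.50 for Mll2 to -0.35 for Mll1, and none was called.

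Imprinted genes, expressed from 1 parental copy and linked to growth, included 3 that fell of 17 listed after values were seen, where 0.466% of all genes fell. Grb10, an adaptor that dampens insulin signalling, stood at 102, 97.5 and 87.4 CPM at 14 days and 54.1, 71.7, 62.0 and 57.8 CPM at 35 days (-0.64 ± 0.13, SE; adjusted p in edgeR = 0.0392). Plagl1, a zinc finger factor, and Mest fell by 0.51 ± 0.13 and 0.76 ± 0.20 (log2, SE; adjusted p in edgeR = 0.0466 and 0.0494). No 35 day value of these genes reached the 14 day range. The list median was -0.46, or -0.22 without libraries 1 and 4, where 0 were called.

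Among the rises, Gstm1, a glutathione transferase of detoxification (chromosome 3, 108012255 to 108017973, minus strand), was called in the most alternatives, 13 of 20. It stood at 93.0, 90.1 and 130.2 CPM at 14 days and 266, 154, 189 and 235 CPM at 35 days. The groups did not overlap, and it rose 2.02-fold (log2 fold change 1.01 ± 0.16, SE; adjusted p in edgeR = 0.00689). With the length trend removed its value was 0.70 (adjusted p in edgeR = 0.0282), and without libraries 1 and 4 it was 0.72 (adjusted p in edgeR = 0.174). Genes of the glutathione transferase family are near copies, so reads could be split between them.

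Dbp, a transcription factor driven by the circadian clock, stood at 42.0, 39.0 and 39.5 CPM at 14 days and 87.8, 52.6, 119 and 113 CPM at 35 days. Replicates 1, 3 and 4 at 35 days were well above the 14 day values, and replicate 2 was closest to them. The log2 fold change was 1.21 ± 0.23 (SE; adjusted p in edgeR = 0.0392), 1.09 with the length trend removed (adjusted p in edgeR = 0.0480) and 1.09 without libraries 1 and 4 (adjusted p in edgeR = 0.180). Nr1d1, which encodes the clock repressor REV-ERBα, stood at 109, 111 and 111 CPM at 14 days and 162, 131, 152 and 183 CPM at 35 days (0.51 ± 0.12, SE; adjusted p in edgeR = 0.0429). Usp2, a deubiquitinase with a daily rhythm, rose by 0.72 ± 0.15 (log2, SE; adjusted p in edgeR = 0.0407). These were 3 of 20 clock genes listed after values were seen, where 0.858% of all genes rose, with 0 that fell and a list median of 0.17. Without libraries 1 and 4 the list median was 0.30 and 0 were called, with 0.36 for Nr1d1 and 0.43 for Usp2 (adjusted p in edgeR = 0.552 and 0.507). Arntl, the activator that is low when Dbp is high in a daily cycle, stood at 20.4, 22.2 and 20.8 CPM at 14 days and 14.6, 16.5, 9.15 and 15.9 CPM at 35 days (-0.59 ± 0.16, SE; adjusted p in edgeR = 0.0603). Per3 and Nr1d2 had log2 fold changes of 0.16 ± 0.18 and 0.18 ± 0.15 (SE; adjusted p in edgeR = 0.596 and 0.480). The sources used here do not give the hour of tissue collection, so time of day and time after injury cannot be told apart.

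The most abundant genes that rose had a 35 day group split into high replicates 1 and 4 and lower replicates 2 and 3. Apoe, the lipid carrier made by astrocytes and lipid-laden phagocytes (chromosome 7, 19696109 to 19699188, minus strand), stood at 4479.8, 4346 and 5700.1 CPM at 14 days and 17369, 6891, 8224 and 17915 CPM at 35 days. Its log2 fold change was 1.38 ± 0.32 (SE; adjusted p in edgeR = 0.0429), and without libraries 1 and 4 it was 0.64 (adjusted p in edgeR = 0.682). Fth1, the ferritin heavy chain that stores iron, stood at 3027, 2907 and 4282 CPM at 14 days and 8913, 4409.8, 5299 and 9075 CPM at 35 days (1.02 ± 0.23, SE; adjusted p in edgeR = 0.0427; 0.51 without libraries 1 and 4). S100b, a calcium-binding protein of astrocytes, stood at 494, 543 and 600.2 CPM at 14 days and 1646, 673, 789.6 and 1387 CPM at 35 days (1.04 ± 0.25, SE; adjusted p in edgeR = 0.0429; 0.42 without libraries 1 and 4). In each of these genes replicates 2 and 3 still lay above all 14 day values, by less than the gap to replicates 1 and 4. Clu, a secreted chaperone, Cst3, an inhibitor of cathepsins, Plekhb1 and Prdx6, a peroxiredoxin, rose by 0.73 to 0.92 on the log2 scale (adjusted p in edgeR = 0.0429 for Prdx6). Their values without libraries 1 and 4 ran from 0.32 for Cst3 to 0.43 for Clu, and none was called there.

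Some single genes known from glia rose, while 0 of 12 homeostatic and 0 of 16 reactive astrocyte genes were called (1.32% of all genes were). Sox9, the factor of astrocyte and progenitor identity, stood at 63.1, 64.9 and 76.4 CPM at 14 days and 142, 78.8, 89.1 and 125 CPM at 35 days (0.67 ± 0.16, SE; adjusted p in edgeR = 0.0429). It was the sole member called of 12 neural stem and progenitor genes, where 0.858% of all genes rose. Mlc1, a membrane protein of astrocyte endfeet, stood at 262, 275 and 299.6 CPM at 14 days and 433, 308, 369.8 and 376 CPM at 35 days (0.42 ± 0.11, SE; adjusted p in edgeR = 0.0494). Id4, an inhibitor of differentiation factors, Phgdh, the entry enzyme of serine synthesis, and Slc25a18, a mitochondrial glutamate carrier, rose by 0.71, 0.45 and 0.70 on the log2 scale (adjusted p in edgeR = 0.0466, 0.0452 and 0.0477). None of the groups overlapped. With libraries 1 and 4 left out, none of these 5 genes was called, and they ran from 0.28 for Mlc1 to 0.52 for Id4. Stmn1, a microtubule regulator of growing neurons that other cells also express, stood at 138, 140 and 185 CPM at 14 days and 383, 208, 217 and 303 CPM at 35 days (0.85 ± 0.19, SE; adjusted p in edgeR = 0.0427). It was the sole member called of 6 immature neuron genes, where 0.858% of all genes rose. The list median was -0.08, and the value of Stmn1 without libraries 1 and 4 was 0.46 (adjusted p in edgeR = 0.608).

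Several of the largest rises were in genes of low level. Ucma, a secreted protein of cartilage, stood at 1.89, 1.93 and 4.19 CPM at 14 days and 24.3, 6.95, 7.82 and 19.5 CPM at 35 days (2.44 ± 0.60, SE; adjusted p in edgeR = 0.0429). Kcns1, a modulatory subunit of potassium channels, stood at 4.03, 5.53 and 11.6 CPM at 14 days and 44.9, 18.7, 21.8 and 31.5 CPM at 35 days (2.04 ± 0.48, SE; adjusted p in edgeR = 0.0429). Their groups did not overlap, and replicates 1 and 4 were the highest in both. Cryba4, a crystallin of the lens, rose by 2.33 ± 0.56 (log2, SE; adjusted p in edgeR = 0.0429) but stayed under 3 CPM. Ager, the receptor for glycated proteins, Slc25a21, a mitochondrial carrier, and Nmb, the neuropeptide neuromedin B, were under 6 CPM in every library and rose by 1.66, 1.58 and 1.35 (log2; adjusted p in edgeR = 0.0429, 0.0427 and 0.0466). Fxyd1, a regulator of the sodium pump, stood at 57.6, 66.5 and 67.7 CPM at 14 days and 208, 70.0, 101 and 238 CPM at 35 days (1.27 ± 0.29, SE; adjusted p in edgeR = 0.0429). St14, a membrane serine protease, Crb2, a polarity protein, and Tmie, a component of the hair cell transduction channel, rose by 1.26, 1.24 and 1.19 (log2; adjusted p in edgeR = 0.0429, 0.0429 and 0.0392). Tmie kept its call with the length trend removed, and so did Bace2, a β-site protease (17.2, 19.7 and 21.7 CPM at 14 days and 38.8, 27.7, 30.0 and 51.5 CPM at 35 days), and Sphk2, a sphingosine kinase (55.0, 48.0 and 52.8 CPM at 14 days and 89.5, 56.1, 78.1 and 92.9 CPM at 35 days). Clec5a, a receptor of myeloid cells, rose by 1.16 ± 0.28 (log2, SE; adjusted p in edgeR = 0.0429). When libraries 1 and 4 were omitted, all genes of this paragraph remained above 0, from 0.37 for Sphk2 to 1.51 for Kcns1, and none was called.

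Transcripts of the ribosome and of the respiratory chain, most of them short, were high in libraries 1 and 4 at 35 days. Of 75 cytosolic ribosomal protein genes tested, 10 rose and 0 fell, where 0.858% of all genes rose, and 72 were higher at an unadjusted p under 0.05 (14% of all genes). Rpl22 stood at 105, 100.2 and 109 CPM at 14 days and 202, 121, 130.3 and 197 CPM at 35 days (0.63 ± 0.14, SE; adjusted p in edgeR = 0.0427). Rpl28, Rpl5 and Rpl14 rose by 0.89, 0.69 and 0.74 on the log2 scale (adjusted p in edgeR = 0.0429, 0.0429 and 0.0429). Replicates 2 and 3 at 35 days lay just above the 14 day range of Rpl22, and replicates 1 and 4 far above it. The summed level of the list was 11220 to 12583 CPM at 14 days and 26458, 12744, 13803 and 23806 CPM in 35 day replicates 1 to 4. The list median was 0.68, 0.12 without libraries 1 and 4 and 0.39 with the length trend removed, and 0 members were called under either setting. Many of these genes have processed copies in the genome, which leaves the assignment of reads uncertain. Of 84 oxidative phosphorylation genes, 3 rose and 0 fell, where 0.858% of all genes rose. Atp5e, a subunit of ATP synthase, stood at 54.9, 57.4 and 57.2 CPM at 14 days and 178, 72.2, 74.2 and 122 CPM at 35 days (0.98 ± 0.22, SE; adjusted p in edgeR = 0.0429), and Cox7a2l and Ndufa3 rose by 0.84 and 0.69 (log2; adjusted p in edgeR = 0.0429 and 0.0429). The median of that list was 0.38, or 0.14 without libraries 1 and 4 and 0.12 with the length trend removed, and 0 members were called under either setting. Both lists were assembled after values were seen.

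Most cell type lists held 0 called genes, where 1.32% of all genes were called. The 16 pan-neuronal genes had a median log2 fold change of -0.11, the 15 of glutamatergic synapses -0.29 and the 16 of GABA and glycine synapses -0.31. In these lists 10, 14 and 16 members had negative log2 fold changes, as did 48% of all genes. All 3 medians were near 0 without libraries 1 and 4 (0.07, -0.04 and 0.07). With the length trend removed they were -0.10, -0.13 and -0.29. Replicate 4 at 35 days was the lowest library in pan-neuronal genes, with a summed level of 6259 CPM against 9785 to 12475 CPM in the other 6. The 13 central myelin genes had a median of 0.23, or 0.17 without libraries 1 and 4. Of these, Opalin stood at 32.4, 33.0 and 27.7 CPM at 14 days and 67.3, 38.5, 44.9 and 50.3 CPM at 35 days, without overlap (0.69 ± 0.19, SE; adjusted p in edgeR = 0.0591). The 16 reactive astrocyte genes had a median of 0.35, or 0.05 without libraries 1 and 4, where 8 were higher and 8 lower. Gfap, their intermediate filament gene, stood at 4065, 4050.4 and 4803 CPM at 14 days and 9556, 4480.1, 5702 and 7666 CPM at 35 days (0.67 ± 0.23, SE; adjusted p in edgeR = 0.0917). Among 10 genes of ependymal cells, which line the central canal, Foxj1, the master factor of motile cilia, stood at 30.6, 32.7 and 39.6 CPM at 14 days and 58.8, 51.5, 46.6 and 55.0 CPM at 35 days. Its groups did not overlap, and it missed the threshold (0.63 ± 0.16, SE; adjusted p in edgeR = 0.0526).

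Among 20 phagocyte and disease-associated microglia genes Apoe was the sole call, where 0.858% of all genes rose. The list median was 0.59, or -0.01 without libraries 1 and 4. Trem2, the lipid-sensing receptor of microglia, stood at 58.2, 43.1 and 71.2 CPM at 14 days and 208, 68.0, 99.9 and 206 CPM at 35 days (1.34 ± 0.39, SE; adjusted p in edgeR = 0.0640). Gpnmb and Spp1, genes of lipid-laden phagocytes, had log2 fold changes of 0.12 ± 0.42 and 0.53 ± 0.34 (SE; adjusted p in edgeR = 0.887 and 0.347), with 95% intervals of -0.75 to 0.98 and -0.18 to 1.23. Both times overlapped in these genes. The 12 homeostatic microglia genes had a median of 0.43, or 0.17 without libraries 1 and 4. Lists of complement, antigen presentation, interferon response, T cells, B cells and neutrophils held 0 calls. Medians were 0.83 for neutrophil, 0.65 for T cell, 0.38 for complement and 0.39 for MHC class I genes. They were 0.32 for interferon gamma-induced, 0.12 for B cell and -0.09 for interferon-stimulated genes. Without libraries 1 and 4 these medians were, in the same order, 0.93, 0.22, 0.08, -0.14, -0.38, -0.04 and -0.43. The 13 MHC class II genes had a median of -0.44, or -0.63 without libraries 1 and 4. Their summed level ran from 676.6 to 1440.2 CPM at 14 days and from 631 to 1523 CPM at 35 days. The 20 mitosis genes had a median of -0.42, or -0.54 without libraries 1 and 4. Mki67, the marker of dividing cells, stood at 62.2, 15.8 and 17.0 CPM at 14 days and 18.4, 14.0, 18.8 and 12.9 CPM at 35 days, and replicate 1 at 14 days was the one high value (-0.97 ± 0.51, SE; adjusted p in edgeR = 0.244).

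**Figure D5:**
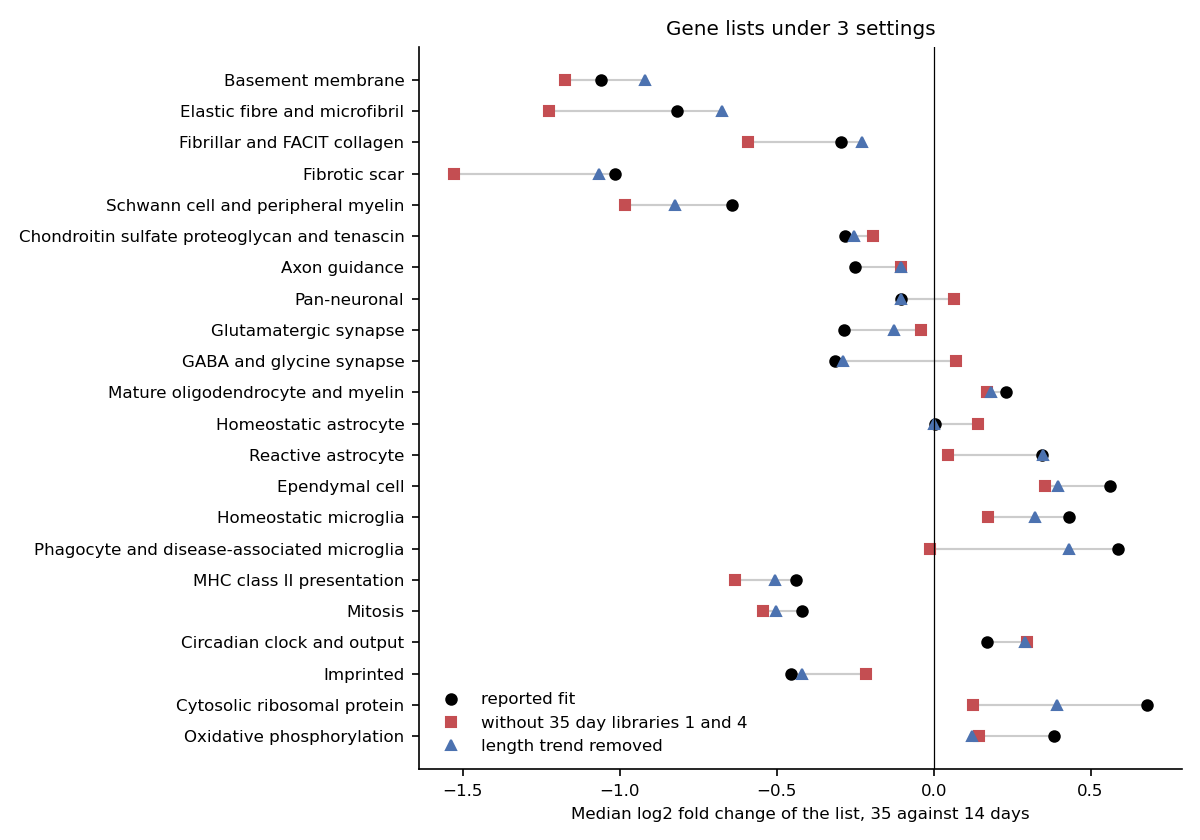
Median log2 fold change from 14 to 35 days (horizontal axis) of 22 gene lists (vertical axis) in the reported fit (circles), without 35 day libraries 1 and 4 (squares) and with the length trend removed (triangles). The basement membrane list lies at -1.06, -1.18 and -0.92, and the ribosomal protein list at 0.68, 0.12 and 0.39.

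Gsx1 cords, the other treatment sampled at both times, shared no library with these groups. In them 1 gene, Kank1, was called from 14 to 35 days (0.00613%). The test of whether the change differed between the treatments called 0 genes in edgeR and 0 in DESeq2 (lowest edgeR adjusted p 0.602; 1304 genes at an unadjusted p under 0.05), so no change described here was shown to be particular to the injured controls. Of the 140 genes that rose in injured controls, 114 were also higher in Gsx1 cords (51.1% of all genes were), with a median log2 fold change of 0.12 against 0.78. Of the 76 that fell, 68 were also lower (48.9% of all genes were), with a median of -0.26 against -1.01. Since the genes were chosen in the injured controls, the larger medians there follow in part from the choice. Col4a1 in Gsx1 cords was at 97.1 ± 30.2 CPM at 14 days (SD, n = 3) and at 62.4 ± 11.0 CPM at 35 days (SD, n = 4), a log2 change of -0.64 ± 0.239 (SE; adjusted p in edgeR = 1). The difference from the change in injured controls was -0.89 ± 0.341 (SE; adjusted p in edgeR = 0.602). Eln was at 28.4 ± 5.03 CPM (SD, n = 3) in Gsx1 cords at the earlier time and at 20.2 ± 5.92 CPM (SD, n = 4) at the later one. Ecel1 and Ncan had log2 fold changes of -1.14 ± 0.216 and -0.95 ± 0.183 (SE; adjusted p in edgeR = 0.0988 and 0.0988) in Gsx1 cords, beside -1.06 ± 0.22 and -0.76 ± 0.18 (SE) in injured controls.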

How the data were processed

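Bulk RNA-seq was measured in 32 libraries of mouse spinal cord, and those of SCI+Ctrl at 14 and 35 days were compared. The authors deposited raw read counts per gene symbol. The submitters' processing notes name HISAT2, SAMtools, HTSeq, DESeq2, mm10 and GRCm38 without versions or roles. The sources used here do not give the annotation, the strand setting or the treatment of multiply matching reads. Columns were matched to samples by label identifiers, and 0 were left over. Nothing ties same-numbered replicates, and their deviations from the group means correlated at -0.01, 0.03 and 0.05.

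All 10 groups entered 1 model in edgeR 4.0.16 (R 4.3.3; quasi-likelihood F test, TMM scaling, minimum count 10, minimum total count 15). It tested 16314 of 23420 genes with 22 residual degrees of freedom, and calls used a Benjamini-Hochberg adjusted p under 0.05. Alternatives included DESeq2 1.42.0, other scalings and filters, and leaving out libraries. The alternatives of leaving out 35 day libraries 1 and 4 together and of a removal of the trend with gene length (merged GENCODE exons, GRCm38), were chosen after seeing the data. On simulated data, 82 of 100 genes changed 2-fold and 98 of 100 changed 4-fold were recovered, with 15 false calls among 195. The simulated counts were independent, with the same spread per gene in all groups, and only well-counted genes were changed. Within a group they held no library that stood apart and no trend with gene length. These rates therefore do not carry over to the real comparison. Any 2 of the 7 libraries differed by a chi-square of at least 7.18 per degree of freedom, more than counting noise gives. This does not tell separate animals from separate preparations of 1 RNA.

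Named genes were the 12 largest rises and falls among called genes without overlap and with a mean of at least 1 CPM, the 6 most abundant called genes in each direction, and list members of smallest p, with others added after their values were seen. Some genes that meet this rule are not reported here. Members and lists were chosen with earlier results of these data known, and 7 lists after values were seen. Promoter sequences are from RefSeq (GRCm38.p6).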

Additional observations from a re-analysis of the deposited data

Results flagged for a closer look

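In the 35 day group of 4 libraries, 81 named genes and 55 gene lists were examined for a library whose gap to the nearest other exceeded Dixon's 95% critical value, which chance alone exceeds in about 1 of 20 groups. Set apart were 4 genes and 3 lists. The genes and lists were measured in the same 4 libraries and share members, so this count cannot be compared with chance. The rule also cannot set apart a pair of libraries that lie close together, as replicates 1 and 4 did in many genes. Among genes, Eln stood at 92.4 CPM in replicate 4, above the other 3, and Slc25a18 at 124.4 CPM in replicate 1. Cd36 stood at 2.31 CPM in replicate 1, below the other 3, and Cfi at 0.337 CPM in replicate 2, where the others were at 0. Among lists, replicate 4 was apart in 3. Its mean log2 CPM over the pan-neuronal genes was 8.08, below the other replicates. It was above them in interferon-stimulated genes, at 4.17, and in interferon gamma-induced GTPases and chemokines, at 4.86.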

How the results depend on the processing

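The count of called genes, 216 in the reported fit, was 186 with RLE factors, 228 with upper-quartile factors and 223 with a stricter filter. It was 131 with library totals only (52.7% higher, against 64.8%), 25 without an expression filter (20% higher), 6 with Xist as a covariate, 2 in low-Xist libraries only, 1 with H2-Bl and Rpl29 as covariates, 0 in the fit of the compared groups alone (1687 genes at an unadjusted p under 0.05) and 972 in DESeq2. Without 35 day libraries 1 and 4 it was 3, and with the length trend removed it was 21. A fold of at least 2 left 72. With the replicate number as a block it was 0, but the numbers do not pair the samples. Leaving out 1 library gave 0 to 2587 calls: 0, 4 and 164 without 14 day replicates 1 to 3, and 2, 2587, 868 and 34 without 35 day replicates 1 to 4. The cause was not tested. The difference from Gsx1 cords had 0 calls under every alternative run. Of 276 genes recomputed under 20 alternatives, 0 called values changed sign.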

Other observations

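Some genes were at separate levels within the 14 day group. Fcrls, a gene of microglia, stood at 5.32, 7.2 and 74.0 CPM at 14 days and 139, 68.7, 84.0 and 111 CPM at 35 days, and Rpl29 split the 14 day libraries in the same way. The histocompatibility gene H2-Bl was at 22.2 and 25.3 CPM in 14 day replicates 1 and 2, at 4.53 CPM in replicate 3 and at 2.15 to 3.39 CPM at 35 days. The Y-linked gene Ddx3y stood at 104, 98.6 and 116 CPM at 14 days and 2.87, 112, 116 and 32.1 CPM at 35 days. Replicate 4 at 35 days thus held Ddx3y at 32.1 CPM together with Xist at 676 CPM, while replicate 1 held 2.87 CPM of Ddx3y with 407 CPM of Xist.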
